A study of Mus musculus with 2 samples.

Results

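The fibrillar and fibril-associated collagens were followed in αSMA-labeled periosteal cells through 10 genes: Col1a1, Col1a2, Col3a1, Col5a1, Col5a2, Col11a1, Col12a1, Col14a1, Col6a1 and Col6a2. They were chosen by name, and all 10 had a row for both plates among the 17938 genes listed. Their transcripts were counted as unique molecular identifiers (UMIs), where each UMI stands for a captured RNA molecule, and levels are given as UMIs per 10000 UMIs of the same wells.

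Fibrillar collagens assemble into the rope-like fibrils that give bone, tendon and periosteum their tensile strength. Type I collagen, made from the products of Col1a1 and Col1a2, is the main fibril of bone and tendon. Type III collagen (Col3a1) is typical of loose and newly made connective tissue. Types V (Col5a1, Col5a2) and XI (Col11a1) are minor fibrillar chains that start fibrils and limit their width. Types XII (Col12a1) and XIV (Col14a1) sit on the surface of fibrils, and type VI (Col6a1, Col6a2) forms beaded microfibrils around cells. The periosteum, the sheath of connective tissue on the outer face of bone, has an outer fibrous layer and an inner layer that holds bone-forming progenitors.

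αSMACreER marks cells that express α smooth muscle actin when tamoxifen is given, and the Ai9 reporter makes them and their progeny Tomato+. All mice carried αSMACreER/Ai9 and received 2 doses of tamoxifen at 75 mg/kg. Tomato+ cells of tibia and femur periosteum were sorted singly into wells after a 30 min digest, in 1 sort per time point from a pool of 2 to 3 female mice. The 2-day mice were αSMACreER/Ai9/Col2.3GFP, with 2 days of chase and an age of 10.3 weeks. The 6-week mice had the same genotype, with 43 days of chase and an age of 14.4 weeks. The 13-week mice were αSMACreER/Ai9/R26-M2rtTA/TetOP-H2B-GFP, with 96 days of chase and an age of 20.1 weeks, and had been fed doxycycline for 5 weeks from postnatal day 11. Col2.3GFP is a transgene driven by a fragment of the Col1a1 promoter, and the H2B-GFP cassette of the 13-week line lies in the Col1a1 locus. Cells at 2 days had expressed αSMA shortly before sorting, whereas the later pools also hold descendants of labeled cells.

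Cells of 2 days and 13 weeks were sorted onto the same plate, called the mixed plate here, and those of 6 weeks onto a separate plate. Time, age, strain and doxycycline feeding therefore cannot be told apart between 2 days and 13 weeks. Time, age and plate cannot be told apart between 2 days and 6 weeks. Wells with at least 200 genes were kept, which left 181 wells at 2 days, 189 at 6 weeks and 133 at 13 weeks, with 171209, 156763 and 117824 UMIs. The median well held 795, 672 and 726 UMIs. The 6-week plate reused well barcodes of the mixed plate, with 216 barcodes in common, so a barcode identifies a cell only within its plate. Each time point is 1 pool, so there is no test between time points, and the 95% intervals given for levels, ratios and shares cover counting error only.

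Wells were grouped in 2 ways that did not use the collagens. Thbs4, Fmod and Tnmd are genes of tendon and fibrous tissue, and wells with 3 or more UMIs of these genes together (Thbs4+Fmod+Tnmd wells) numbered 70, 68 and 49 at 2 days, 6 weeks and 13 weeks. Rgs5 is a pericyte gene, and wells with at least 1 Rgs5 UMI numbered 35, 45 and 38, of which 3, 4 and 6 also passed the first gate. The 10 tendon markers, which include the gate genes, reached 245, 300 and 216 UMIs per 10000 in the Thbs4+Fmod+Tnmd wells and at most 13.8 in the wells outside both gates. In the Rgs5 wells outside the first gate, the 11 perivascular markers, Rgs5 among them, stood at 130, 107 and 124 per 10000. The 11 endothelial markers also stood at 26.8, 47.5 and 54.4 per 10000 there, against 0.632, 3.79 and 10.2 in the wells outside both gates, so the Rgs5 wells were not purely perivascular.

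**Figure D1:**
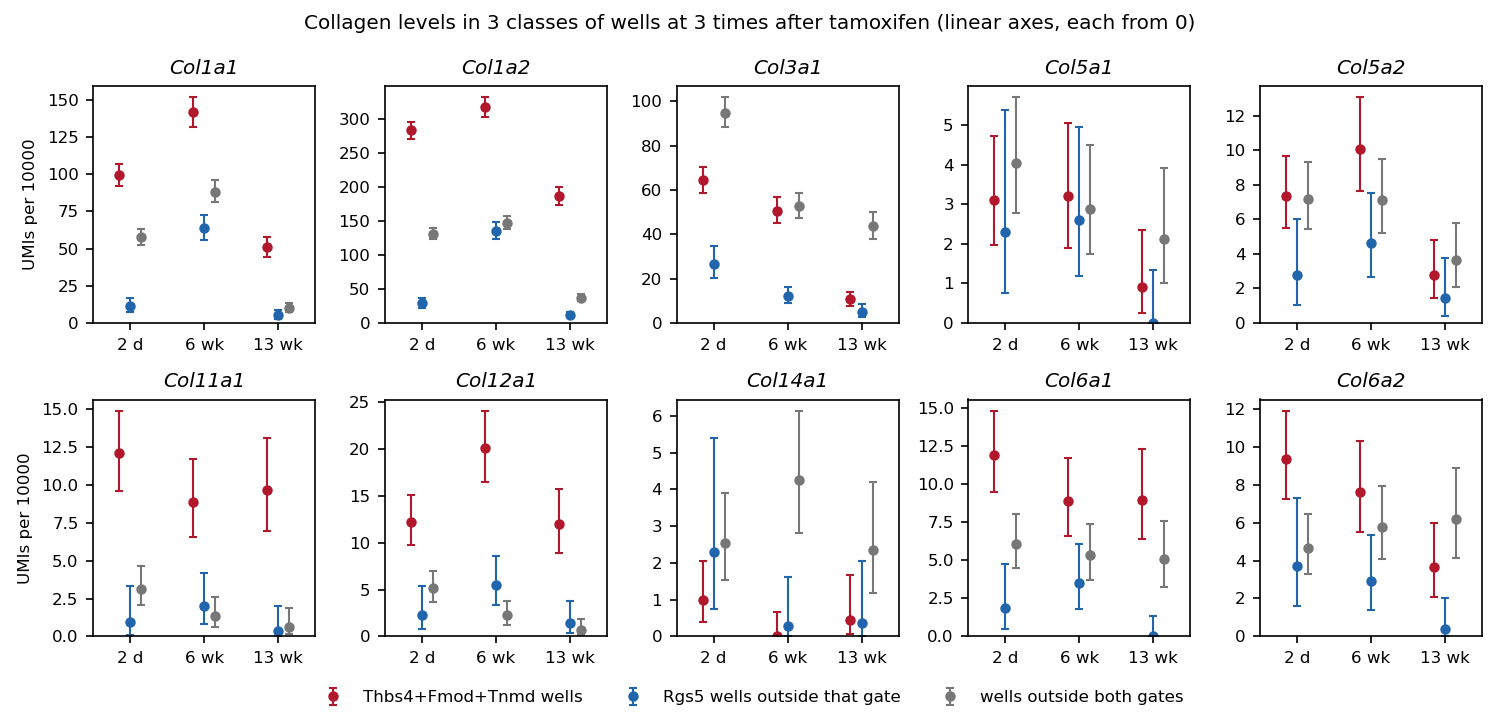
Level of each collagen (UMIs per 10000, linear axes from 0) at 2 days, 6 weeks and 13 weeks in Thbs4+Fmod+Tnmd wells (red), Rgs5 wells outside that gate (blue) and wells outside both gates (grey). Points are pooled levels of 1 pool of mice and bars are 95% Poisson intervals, which cover counting error only. Col1a1, Col1a2, Col11a1 and Col12a1 are highest in the red class at every time, whereas Col3a1 is highest in the grey class at every time, at 6 weeks by less than the counting error (52.6 against 50.6).

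The 6-week plate stood apart in type I collagen, and this has to be read before any other 6-week value. At 6 weeks, Col1a1 and Col1a2 UMIs were present in wells of every kind. Among kept wells, the sum of both chains was never below 3 UMIs (lowest 3, median 18.0, highest 192), and 188 of 189 wells held 5 or more. At 2 days the lowest, median and highest values were 0, 8 and 277, with 16 of 181 wells at 0. At 13 weeks they were 0, 3 and 162, with 24 of 133 wells at 0. Counting shallow wells too, none of the 210 wells with any UMI at 6 weeks lacked type I collagen, compared with 19 of 192 wells at 2 days and 42 of 191 at 13 weeks.

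Wells that carried the transcripts of other cell types held type I UMIs too. The 10 skeletal muscle wells of 6 weeks, defined by 10 or more UMIs of 10 muscle markers, held 6 to 19 type I UMIs each (median 12). The 20 endothelial wells outside the Thbs4+Fmod+Tnmd gate, defined by 2 or more UMIs of endothelial markers, held 9 to 22 (median 16.5), and the 21 wells under 200 genes held 6 to 23 (median 12). On the mixed plate, the 21 endothelial wells of 13 weeks held 0 to 6 (median 1.00) and the 11 of 2 days held 0 to 3 (median 2.00). Most of the endothelial wells also held Rgs5 (11 of 11 at 2 days, 17 of 20 at 6 weeks and 16 of 21 at 13 weeks). The 3 kinds of wells were then pooled as reference wells, leaving out 2, 3 and 6 wells under 200 genes that passed the Thbs4+Fmod+Tnmd gate. The reference wells without Rgs5 held 6 to 23 type I UMIs at 6 weeks (25 wells), 0 to 3 at 2 days (10 wells) and 0 to 4 at 13 weeks (48 wells). In all reference wells (48 wells at 6 weeks, 21 at 2 days and 79 at 13 weeks), Col1a2 stood at 148 UMIs per 10000 at 6 weeks (95% Poisson interval 134 to 162), against 11.8 at 2 days (6.61 to 19.5) and 17.3 at 13 weeks (13.3 to 22.2). With the left-out wells put back, a choice made after seeing the data, Col1a2 stood at 150, 24.3 and 20.6. Col1a1 stood at 85.4, 10.2 and 6.98 in the reference wells. Col3a1 did not share this. It was at 4.40 per 10000 in the 6-week reference wells, below its 9.45 and 7.82 on the mixed plate, and it had no UMI in the 10 muscle wells, which allows up to 6.43 per 10000. The type V chains also had more UMIs in the 6-week reference wells, at much lower levels and with overlapping intervals. Col5a1 stood at 2.71 per 10000 (1.17 to 5.34) in the reference wells at 6 weeks, 0 UMIs at 2 days and 0.559 (0.0677 to 2.02) at 13 weeks, and its level over all kept 6-week wells was 2.93. Col5a2 stood at 2.71, 0 and 0.838, against 7.65 over all kept 6-week wells. The remaining 5 members had 0.678 to 2.37 per 10000 in the 6-week reference wells and 0 to 3.94 on the mixed plate.

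The type I UMIs of 6 weeks also followed the depth of the well weakly. Outside the Thbs4+Fmod+Tnmd gate, the shallowest of 3 equal groups of 6-week wells (127 to 427 UMIs) had a median of 12.5 type I UMIs and the deepest (754 to 3928 UMIs) had 18.0. At 2 days the medians were 1.00 and 7.5, and at 13 weeks 1.00 and 2.00. Sequencing was also thinner on these molecules. In the 6-week skeletal muscle and endothelial wells, each type I UMI was backed by 1.34 and 1.33 reads, whereas all genes of the same wells had 4.90 and 7.95 reads per UMI. In the 6-week Rgs5 wells outside the first gate, Col1a1 had 2.10 and Col1a2 2.87 reads per UMI, and Col3a1 had 9.86. In the 6-week Thbs4+Fmod+Tnmd wells the values were 3.67, 5.92 and 11.3. The few type I UMIs of the mixed plate's endothelial wells were backed as thinly, by 1.44 reads at 2 days and 1.19 at 13 weeks, so thin backing was not confined to the 6-week plate, while the number of such UMIs per well was 16.1 at 6 weeks, 1.64 at 2 days and 1.24 at 13 weeks.

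Some bone genes were also found in more of the 6-week reference wells than of the mixed plate's, though not in every well. Each UMI there was backed by 1.22 reads for Ibsp and 6.69 for Bglap, against 1.26 for Col1a1 and 1.40 for Col1a2. Ibsp, which encodes bone sialoprotein, was in 54.2% of these 48 wells and in 2.00% of the 100 reference wells of the mixed plate, and Bglap, which encodes osteocalcin, was in 50% and 5.00%. Ranked by this gap among the 440 genes with at least 10 UMIs in the 6-week reference wells, Col1a1 ranked 2 and Col1a2 ranked 4, beside Gpx3, Ibsp and Spp1, which were picked out after their values were seen. Genes entered this ranking by their 6-week counts, which favours positive gaps, and the shares were not adjusted for depth, so the ranks are descriptive only. Because it was present in wells of every kind, type I collagen at 6 weeks was treated as possible RNA shared among the wells of that plate. Whether shared RNA was its source was not tested. Of the 4826 type I UMIs of kept 6-week wells, 2242 lay outside the Thbs4+Fmod+Tnmd wells, and they enter every fit and ratio below that uses these wells, so values without the 6-week pool or without the type I chains are given beside them.

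**Figure D2:**
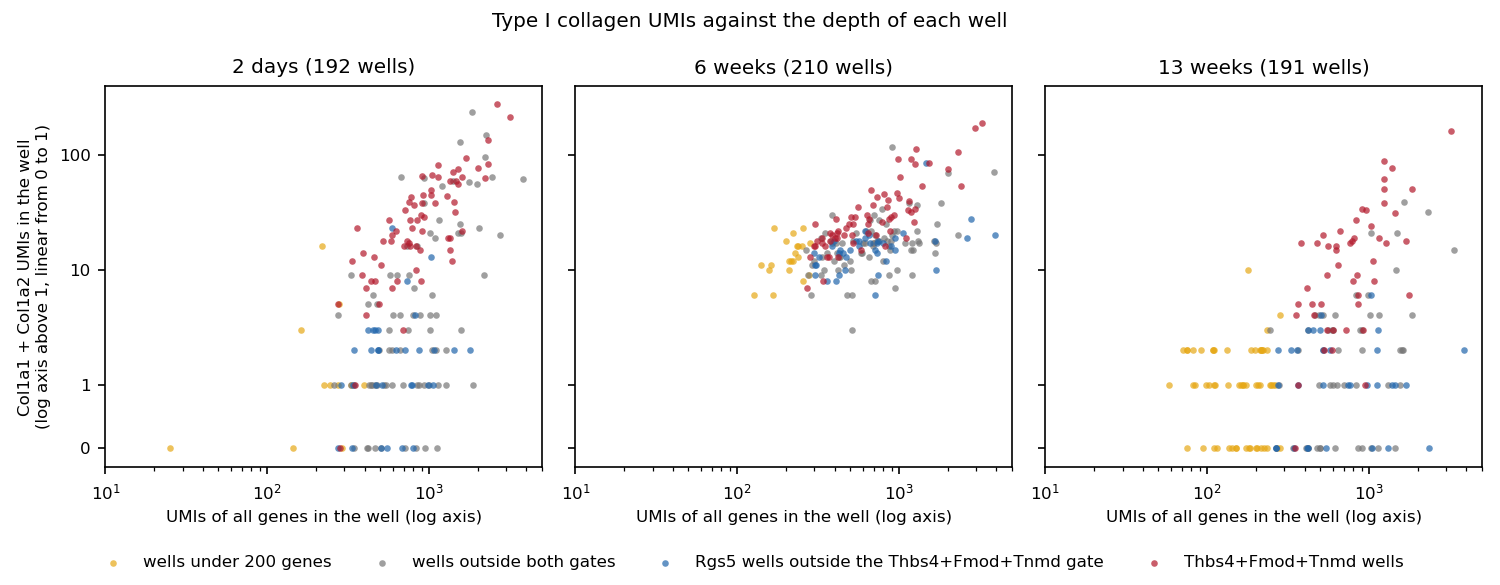
Col1a1 plus Col1a2 UMIs in each well (log axis above 1, linear from 0 to 1) against all UMIs of the well (log axis), for every well with at least 1 UMI at 2 days, 6 weeks and 13 weeks, coloured by class. At 6 weeks all 210 wells lie at 3 UMIs or above whatever their depth, whereas 19 wells of 2 days and 42 of 13 weeks lie at 0.

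Collagens of the tendon-like fibril, types I, XI and XII, were higher in Thbs4+Fmod+Tnmd wells than in all other wells. The 2 kinds of wells were compared with edgeR over the sums of 3 time points, with the time point as a block, and adjusted over the 1107 genes tested. Of the 10 collagens, all of which were tested, 5 were higher (Col1a1, Col1a2, Col11a1, Col12a1 and Col6a1), against 11.4% of all genes tested. Col14a1 was called lower, as were 7.14% of all genes tested, but its direction was fixed by the filter on low counts. The median log2 fold change of the 10 was 1.05, and that of all genes tested was 0.00. Because each time point is 1 pool, these p-values measure the spread between the 3 pools.

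For type I collagen, Col1a2 stood at 284 UMIs per 10000 in Thbs4+Fmod+Tnmd wells and 109 in the other wells at 2 days, at 317 and 143 at 6 weeks, and at 187 and 27.7 at 13 weeks. The gated wells were higher at all 3 times, by 3.72-fold in the fit (log2 fold change 1.90 ± 0.37 SE, n = 3 pools, edgeR adjusted p = 0.00693). Col1a1 stood at 99.4 and 47.9 per 10000 at 2 days, 142 and 79.9 at 6 weeks, and 50.8 and 8.34 at 13 weeks. It was 3.0-fold higher in the fit (log2 fold change 1.58 ± 0.35, edgeR adjusted p = 0.0136). The ratio between the groups was smallest at 6 weeks, 1.77 for Col1a1 (1.61 to 1.96) and 2.21 for Col1a2 (2.06 to 2.37), where every well carried type I UMIs. At 2 days the ratios were 2.08 (1.85 to 2.34) and 2.61 (2.42 to 2.81), so the Col1a1 intervals overlapped. Against the wells outside both gates, Col1a1 had 1.72 (1.53 to 1.94) at 2 days and 1.60 (1.44 to 1.79) at 6 weeks. Col1a2 had 2.17 (2.01 to 2.34) and 2.15 (1.99 to 2.33) there, so the intervals of these times overlapped for both chains. At 13 weeks these ratios were 4.97 and 5.04. Without the 6-week pool the log2 fold change was 1.93 for Col1a1 and 2.21 for Col1a2 (edgeR adjusted p = 0.0326 and 0.0289). For Col1a1 and Col1a2 in turn, the call was lost without the 2-day pool (log2 fold change 1.85 and 2.13, edgeR adjusted p = 0.0966 and 0.0838) and without the time point as a block (1.25 and 1.65, edgeR adjusted p = 0.209 and 0.0761).

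Col11a1, the type XI chain, had the largest fold change of the 10. It stood at 12.1 per 10000 in Thbs4+Fmod+Tnmd wells and 2.68 in the other wells at 2 days, 8.88 and 1.59 at 6 weeks, and 9.66 and 0.538 at 13 weeks. Of all Col11a1 UMIs, 75.9%, 75.8% and 91.3% came from these wells at the 3 times in turn, while 41.2%, 35.9% and 36.9% of the UMIs of all genes did. The fit gave 7.07-fold (log2 fold change 2.82 ± 0.35, edgeR adjusted p = 0.000585). The 13-week ratio rests on 4 UMIs outside the gate, and its interval was wide (18.0, 6.52 to 68.9).

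Col12a1, the fibril-surface type XII chain, was higher as well. It stood at 12.2 and 4.57 per 10000 at 2 days, 20.1 and 3.39 at 6 weeks, and 12 and 0.942 at 13 weeks, and was 5.62-fold higher in the fit (log2 fold change 2.49 ± 0.37, edgeR adjusted p = 0.00152). Col11a1 and Col12a1 were called under all 20 alternatives tried, which changed the filters, the gate, the scaling, the tool or the pools.

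Col14a1, the other fibril-surface chain, had few UMIs. It had 7 UMIs in the Thbs4+Fmod+Tnmd wells at 2 days, 0 at 6 weeks and 2 at 13 weeks, against 25, 29 and 12 in the other wells. The 0 of 68 wells at 6 weeks allows a level of up to 0.533 per 10000, and the other 6-week wells stood at 2.89. In the fit it was 4.10-fold lower (log2 fold change -2.03 ± 0.59, edgeR adjusted p = 0.0388). With 75 UMIs in all, it passed the filter on low counts through the other wells alone, where it was high, so any call had to be lower. With no filter the log2 fold change was -2.23 (edgeR adjusted p = 0.000712). The call held in 12 of the 19 alternatives that tested the gene, and was lost without the 6-week pool (log2 fold change -1.32, edgeR adjusted p = 0.163) and with DESeq2 (-2.35, DESeq2 adjusted p = 0.111).

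Col3a1 did not follow type I collagen. It stood at 64.3 per 10000 in Thbs4+Fmod+Tnmd wells and 80.3 in the other wells at 2 days, 50.6 and 38.7 at 6 weeks, and 10.6 and 29.6 at 13 weeks. The gated wells were thus lower at 2 days (ratio 0.80, 0.711 to 0.899) and 13 weeks (0.358, 0.254 to 0.493) and higher at 6 weeks (1.31, 1.12 to 1.53). The size of these ratios depends on a few wells. At 6 weeks 2 of the 68 gated wells held 118 of the 285 Col3a1 UMIs, and without them the ratio was 0.827 (0.686 to 0.994). Without all wells of 20 or more Col3a1 UMIs, a choice made after seeing the data, the 2-day ratio was 0.987 (0.817 to 1.19), the 6-week ratio 1.18 (0.95 to 1.47) and the 13-week ratio 0.925 (0.626 to 1.35), and all 3 intervals included 1. Without the 5 wells with most Col3a1 of each class and time, also chosen after seeing the data, the ratios were 0.573 (0.484 to 0.677), 1.01 (0.796 to 1.28) and 0.776 (0.470 to 1.25). The 2-day difference thus stayed under this choice and not under the other. The 6-week direction also depends on the Rgs5 wells among the others, which stood at 12.2. Against the wells outside both gates the ratios were 0.677 (0.601 to 0.762), 0.961 (0.819 to 1.1) and 0.241 (0.171 to 0.334). Over the 3 pools the log2 fold change was -0.25 ± 0.30 (edgeR adjusted p = 0.610), and its sign turned without the 13-week pool (0.10). It was called lower in 1 of 20 alternatives, with every well thinned to 300 UMIs before gating (-0.64, edgeR adjusted p = 0.0492).

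The type V chains did not pass the test. Col5a1 had a log2 fold change of 0.02 ± 0.30 (edgeR adjusted p = 0.971), with 3.12 and 3.67 per 10000 at 2 days, 3.20 and 2.79 at 6 weeks, and 0.920 and 1.35 at 13 weeks. Its sign changed between alternatives. Col5a2 had 0.50 ± 0.24 (edgeR adjusted p = 0.173). Of the type VI chains, Col6a1 was 2.53-fold higher (log2 fold change 1.34 ± 0.23, edgeR adjusted p = 0.00388), at 11.9 and 5.16 per 10000 at 2 days, 8.88 and 4.68 at 6 weeks, and 8.97 and 3.23 at 13 weeks. Its partner Col6a2 missed the threshold (0.77 ± 0.26, edgeR adjusted p = 0.0707) and was called in 6 of 19 alternatives. Col6a2 was higher in the gated wells at 2 days (ratio 2.10, 1.41 to 3.13) and 6 weeks (1.60, 1.03 to 2.46) and not distinguishable at 13 weeks (0.912, 0.464 to 1.73).

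**Figure D3:**
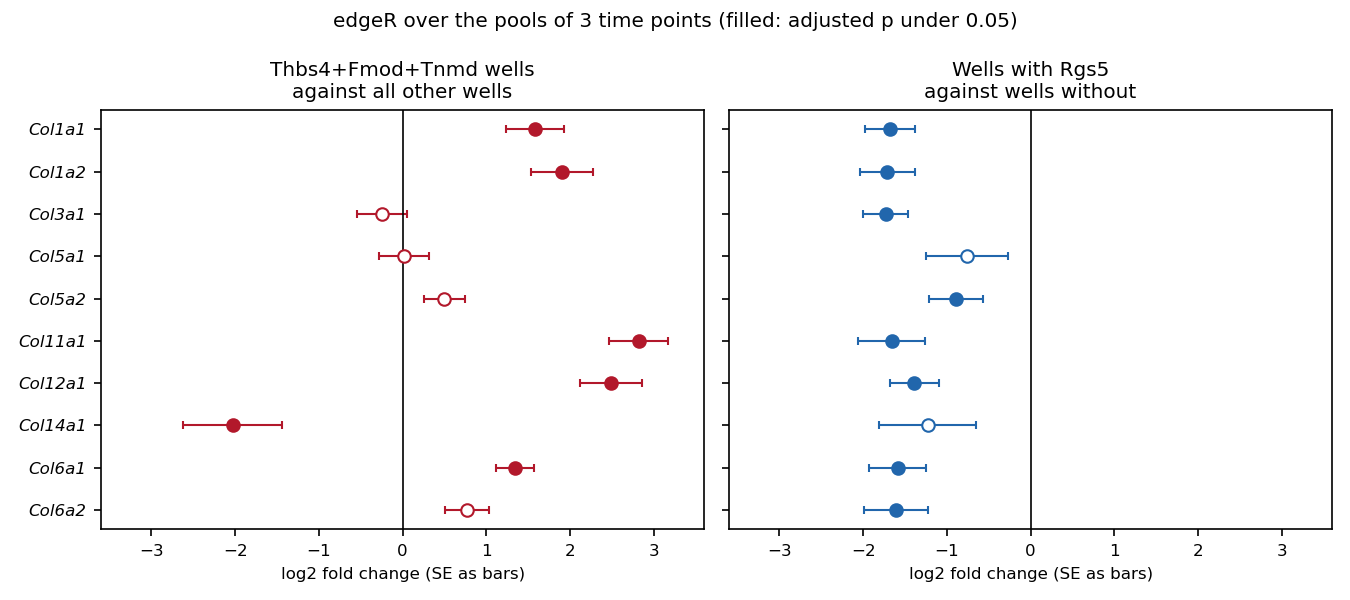
log2 fold change of each collagen (point) with its SE (bar) in Thbs4+Fmod+Tnmd wells against all other wells (left, red) and in wells with Rgs5 against wells without (right, blue), from edgeR over the pools of 3 time points. Filled points have an adjusted p under 0.05 over all genes tested. On the left 5 points are filled above 0 and Col14a1 is filled below 0, and on the right 8 points are filled, all below 0.

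The 10 genes lie on 8 chromosomes in GENCODE M21 (GRCm38), with neighbouring pairs on chromosomes 1 and 10. Col3a1 (ENSMUSG00000026043.18, chr1:45311538-45349706, plus strand) lies next to Col5a2 (ENSMUSG00000026042.16, chr1:45374321-45503282, minus strand). Col6a1 (ENSMUSG00000001119.7, chr10:76708792-76726168) and Col6a2 (ENSMUSG00000020241.13, chr10:76595762-76623630) share the minus strand. The type I genes are apart, Col1a1 (ENSMUSG00000001506.10) at chr11:94936224-94953042 and Col1a2 (ENSMUSG00000029661.16) at chr6:4504814-4541544, both on the plus strand. Col5a1 (ENSMUSG00000026837.15, chr2:27886425-28039514), Col11a1 (ENSMUSG00000027966.20, chr3:114030540-114220718) and Col14a1 (ENSMUSG00000022371.16, chr15:55307750-55520803) are on the plus strand, and Col12a1 (ENSMUSG00000032332.17, chr9:79598991-79718831) is on the minus strand.

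The sequences around the start of 4 members are shown, those of Col1a2, Col11a1 and Col6a1, which were higher in the Thbs4+Fmod+Tnmd wells, and that of Col3a1, which was not. Each runs from 250 bases before to 50 bases after the RefSeq start (GRCm38.p6, plus strand except Col6a1), and capitals mark CCAAT or its reverse complement ATTGG, and TATAAA or its reverse complement TTTATA. Of 32851 such regions of the genome, 37.4% hold the first motif on either strand and 13.6% the second. Col1a2 (chr6:4505368-4505667) has the first motif at positions -109 and 1 from the start, Col11a1 (chr3:114030290-114030589) has it at -79, and Col3a1 (chr1:45311288-45311587) has the second motif at -117. Col6a1 (chr10:76725995-76726294, minus strand) has neither, so the called members shown here did not all share a motif. Col1a1 and Col12a1 were also called higher but have no sequence here. Col5a1 and Col6a2, the other members with a sequence here, have neither as well. The matches are letters in these windows only, and nothing measured here bears on binding to them.
Col1a2: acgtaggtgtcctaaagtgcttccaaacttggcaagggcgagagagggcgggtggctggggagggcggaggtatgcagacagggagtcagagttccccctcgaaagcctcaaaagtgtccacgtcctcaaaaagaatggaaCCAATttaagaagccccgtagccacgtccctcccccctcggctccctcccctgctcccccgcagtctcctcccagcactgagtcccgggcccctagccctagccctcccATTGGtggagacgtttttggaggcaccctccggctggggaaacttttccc
Col11a1: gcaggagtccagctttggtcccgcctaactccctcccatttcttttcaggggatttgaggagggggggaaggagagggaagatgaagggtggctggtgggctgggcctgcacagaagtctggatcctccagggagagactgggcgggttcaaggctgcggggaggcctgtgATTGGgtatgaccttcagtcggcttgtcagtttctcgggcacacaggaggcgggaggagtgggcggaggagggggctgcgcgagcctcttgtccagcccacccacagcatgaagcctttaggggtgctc
Col6a1: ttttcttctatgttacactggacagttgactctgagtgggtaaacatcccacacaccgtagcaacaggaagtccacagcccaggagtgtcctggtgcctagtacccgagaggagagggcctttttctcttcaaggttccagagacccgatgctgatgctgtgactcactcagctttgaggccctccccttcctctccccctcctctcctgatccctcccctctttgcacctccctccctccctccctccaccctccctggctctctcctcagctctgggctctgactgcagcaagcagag
Col3a1: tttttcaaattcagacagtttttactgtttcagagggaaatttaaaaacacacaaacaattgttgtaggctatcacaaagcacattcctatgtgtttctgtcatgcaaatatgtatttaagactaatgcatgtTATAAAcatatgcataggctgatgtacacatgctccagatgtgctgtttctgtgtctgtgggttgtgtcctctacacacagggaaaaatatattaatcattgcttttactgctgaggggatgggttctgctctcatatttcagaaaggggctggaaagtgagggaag

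Wells with Rgs5 had less collagen of nearly every type. Of the 10 members, all tested, 8 were lower in wells with Rgs5 than in wells without, against 11.1% of the 927 genes tested, and 0 were higher, against 12%. All 10 log2 fold changes were negative, so 0 were higher by edgeR at an unadjusted p under 0.05 too, and DESeq2 called 0 higher. The 2 not called, Col5a1 (log2 fold change -0.76 ± 0.49, edgeR adjusted p = 0.300) and Col14a1 (-1.23 ± 0.58, edgeR adjusted p = 0.129), had few UMIs. The median log2 fold change of the 10 was -1.60, and that of all genes tested was 0.01.

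Col3a1 fell by 1.73 on the log2 scale (SE 0.27, edgeR adjusted p = 4.69e-07), with 34.1 UMIs per 10000 in Rgs5 wells and 80.3 in the others at 2 days, 11.5 and 52.6 at 6 weeks, and 7.23 and 28.3 at 13 weeks. Col1a2 fell by 1.71 (SE 0.33, edgeR adjusted p = 3.02e-05), with 44.3 and 203 at 2 days, 143 and 225 at 6 weeks, and 20.1 and 111 at 13 weeks. For Col1a1 the change was -1.68 (SE 0.30, edgeR adjusted p = 7.04e-06). Without the 6-week pool the changes were -2.26 for Col1a2 and -2.28 for Col1a1 (edgeR adjusted p = 0.00206 and 0.00200). Again the contrast in type I collagen was smallest on the 6-week plate, with a Col1a2 ratio of 0.634 (0.577 to 0.697) against 0.218 (0.178 to 0.264) at 2 days and 0.182 (0.139 to 0.234) at 13 weeks. Col3a1, which had no such level in the 6-week reference wells, had ratios of 0.424, 0.218 and 0.256. For the type VI, XI and XII chains the log2 fold changes were between -1.66 and -1.39, and Col5a2 changed least among those called (-0.89 ± 0.32, edgeR adjusted p = 0.0312). The Col5a2 call held in 6 of 15 alternatives and was lost when any 1 pool was left out (edgeR adjusted p = 0.0807 without 2 days, 0.175 without 6 weeks and 0.0796 without 13 weeks).

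This comparison is not independent of the first, since the wells without Rgs5 include nearly all Thbs4+Fmod+Tnmd wells. With those wells left out of both sides, a choice made after seeing the data, Col1a2 and Col3a1 were the members still called lower, of 7 tested. In that setting 97 of all 550 genes tested were called in either direction. With every well thinned to 300 UMIs before gating, Col1a1 and Col1a2 were called lower, of 4 tested, and 45 of all 250 genes were called in either direction. Without the time point as a block 3 members were called (Col11a1, Col12a1 and Col6a1), with 151 of all 927 genes called in either direction. Without the 13-week pool Col1a2 was not called (log2 fold change -1.40, edgeR adjusted p = 0.0776). Outside the Thbs4+Fmod+Tnmd gate, Col1a2 stood at 29.1 per 10000 in Rgs5 wells (22.4 to 37.3) and 131 in the wells outside both gates (123 to 139) at 2 days, and at 11.7 (8 to 16.5) and 37.0 (31.7 to 43.0) at 13 weeks. At 6 weeks the same 2 classes stood at 135 (123 to 148) and 147 (138 to 157). After thinning to 300 UMIs, a Col1a2 UMI was seen in 50% of Rgs5 wells at 2 days (15 of 30, Clopper-Pearson 31.3 to 68.7), 92.7% at 6 weeks (38 of 41, 80.1 to 98.5) and 42.9% at 13 weeks (12 of 28, 24.5 to 62.8). Without thinning the shares were 75.0%, 100% and 59.4%. In the 6-week skeletal muscle wells, which served as background, the thinned share was 88.9% (8 of 9, 51.8 to 99.7), and the share in Rgs5 wells lay within that interval. Median depth of the Rgs5 wells was 568, 621 and 532 UMIs, and that of the 6-week muscle wells was 386.

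Most of the collagens were lower at 13 weeks than at 2 days. Of the 9 members with 50 or more UMIs, all 9 had an interval below 1, against 18.3% of the 772 genes with as many UMIs, and 0 had one above 1, against 9.07%. Over all kept wells, the sum of the 10 collagens went from 6237 UMIs at 2 days to 1841 at 13 weeks, a ratio of 0.429 (0.407 to 0.452) per UMI sequenced, or 2.33-fold lower. Wells with a UMI but under 200 genes, left out here, numbered 11 at 2 days and 58 at 13 weeks. The part of this difference between the pools in the ratio was not tested. Of the same 9 members, 5 were lower by 2-fold or more, whereas 6.35% of the 772 genes were. The ratio was 0.306 for Col3a1 (0.267 to 0.350), 0.345 for Col5a1 (0.178 to 0.625), 0.348 for Col1a1 (0.304 to 0.396), 0.417 for Col5a2 (0.274 to 0.619) and 0.477 for Col1a2 (0.444 to 0.513). The others lay between 0.597 and 0.673, and the interval of Col14a1 included 1 (0.636, 0.313 to 1.23). The median ratio of all these genes was 0.918. Without the type I chains, a choice made after seeing the data, the summed ratio was 0.401 (0.364 to 0.442). By well, the share of Thbs4+Fmod+Tnmd wells was 38.7% at 2 days and 36.8% at 13 weeks, and their median Col1a2 count went from 17 to 10 UMIs at median depths of 860 and 802 UMIs. In the other wells the medians were 2.00 and 1.00. Wells with 20 or more Col1a2 UMIs numbered 46 of 181 at 2 days and 13 of 133 at 13 weeks.

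The members differed in where this happened. Within the Thbs4+Fmod+Tnmd wells, Col1a2 was 1.52-fold lower at 13 weeks (ratio 0.658, 0.606 to 0.714), and outside them it was 3.93-fold lower (0.255, 0.218 to 0.296). For Col1a1 the ratios were 0.511 (0.437 to 0.595) and 0.174 (0.132 to 0.227). Col12a1 was not distinguishable from its 2-day level within the gated wells (0.980, 0.681 to 1.40) and 4.85-fold lower outside them (0.206, 0.0785 to 0.460), and Col11a1 showed 0.801 (0.540 to 1.17) and 0.201 (0.0510 to 0.576), the latter from 4 against 27 UMIs. For Col1a1, Col1a2 and Col12a1 the intervals of the 2 classes did not overlap. The Col3a1 ratio was 0.165 (0.119 to 0.223) within the gated wells and 0.368 (0.316 to 0.428) outside, but this order rests on a few wells. At 2 days, 5 of the 70 gated wells held 255 of the 453 Col3a1 UMIs, and the median gated well held 1.00 at both times. Leaving out all wells with 20 or more Col3a1 UMIs, a choice made after seeing the data, gave 0.328 (0.233 to 0.454) within and 0.351 (0.268 to 0.455) outside, and leaving out the 5 wells with most Col3a1 of each class and time gave 0.224 (0.143 to 0.338) and 0.165 (0.124 to 0.216). With wells of 20 or more UMIs of the gene left out in the same way, Col1a2 kept its order (0.767, 0.654 to 0.898, within and 0.516, 0.422 to 0.628, outside), and the intervals of Col1a1 overlapped (0.596, 0.497 to 0.713, and 0.415, 0.305 to 0.556). Without the 5 wells with most of the gene in each class and time, neither overlapped. Col1a1 had 0.445 (0.363 to 0.542) within and 0.211 (0.143 to 0.304) outside, and Col1a2 had 0.548 (0.492 to 0.610) and 0.224 (0.180 to 0.276). Col12a1 had no well of 20 or more UMIs, but 5 of the 111 other wells held 36 of their 46 Col12a1 UMIs at 2 days. Leaving out the 5 wells with most Col12a1 of each class and time gave 0.905 (0.549 to 1.46) within and 0.134 (0.00308 to 0.939, 1 against 10 UMIs) outside, with overlapping intervals. These intervals cover counting error only, and the difference between the classes was not tested across pools. By the 2-fold rule, 3 of 8 members were lower within the gated wells (Col3a1, Col5a2 and Col6a2), against 11.7% of 273 genes, and 5 of 7 outside (Col1a1, Col1a2, Col3a1, Col5a2 and Col12a1), against 9.64% of 446 genes.

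Outside the gate the intervals of both type VI chains included 1, with ratios of 0.625 for Col6a1 (0.369 to 1.03) and 0.903 for Col6a2 (0.549 to 1.47). That of Col14a1 did too (0.650, 0.298 to 1.34), from 12 against 25 UMIs. The Col6a1 interval overlapped that of Col5a2 (0.452, 0.262 to 0.750). The osteocalcin genes Bglap and Bglap2 moved with type I collagen there, and not the whole osteoblast list. In the wells outside both gates, the 7 osteoblast markers summed to 47.2 UMIs per 10000 at 2 days and 2.34 at 13 weeks, of which Bglap made up 29.7 and 1.06 and Bglap2 15 and 0. The other 5 were at 0.885 or less at both times, with Ibsp at 0.885 and 0.851 and Sp7, a defining osteoblast factor, at 0. The 8 fibroblast markers stood at 160 and 132. The part of these genes in the result was not tested. Endothelial markers in the same wells went from 0.632 to 10.2 and skeletal muscle markers from 31.6 to 68.8 per 10000, and the summed ratio was 0.436 without the muscle wells.

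**Figure D4:**
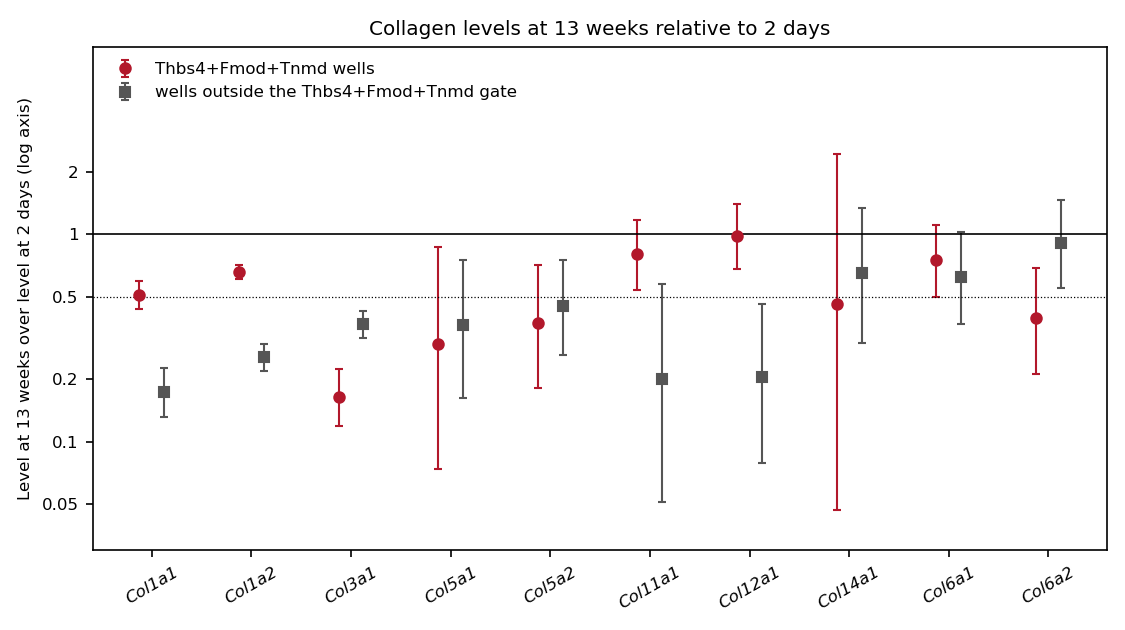
Level at 13 weeks over level at 2 days for each collagen (log axis) in Thbs4+Fmod+Tnmd wells (red circles) and in wells outside that gate (dark squares), with 95% exact conditional intervals that cover counting error only. The solid line marks no difference and the dotted line a level lower by 2-fold. Col1a1, Col1a2 and Col12a1 lie lower outside the gate. The intervals overlap for Col1a1 without wells of 20 or more UMIs of the gene. They overlap for Col12a1 without the 5 wells with most of it in each class and time. Col3a1 lies lower inside it, an order that rests on a few wells, since without wells of 20 or more Col3a1 UMIs the ratios are 0.328 inside and 0.351 outside.

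At 6 weeks the direction of the summed collagens depended on how they were counted. The ratio to 2 days was 1.07 (1.03 to 1.11) in UMIs, 0.836 in reads and 1.39 as a mean over wells, and without the type I chains, a choice made after seeing the data, it was 0.708 (0.659 to 0.760) in UMIs and 0.793 in reads. In UMIs of all kept wells, which include the type I UMIs found in wells of every kind, the ratio was 1.48 for Col1a1 (1.37 to 1.60) and 1.14 for Col1a2 (1.08 to 1.20). Col3a1 (0.583, 0.530 to 0.641) and Col11a1 (0.644, 0.467 to 0.880) were lower, and the intervals of the other 6 included 1. Of all 957 genes, 14.1% had an interval below 1 and 12.1% one above. None of the 10 was past 2-fold in either direction, against 2.61% of 957 genes lower and 4.39% higher. The type I ratios turned below 1 when reads were counted in place of UMIs, which gave 0.886 for Col1a1 and 0.856 for Col1a2. Within the Thbs4+Fmod+Tnmd wells, Col12a1 was 1.64 times its 2-day level (1.23 to 2.20) and Col1a1 1.43 times (1.29 to 1.58). On this plate the reference wells held Col1a1 at 85.4 per 10000, against 10.2 at 2 days, and the part of this in the Col1a1 values of the gated wells (142 and 99.4) was not tested. Outside the gate the Col12a1 ratio was 0.741 (0.461 to 1.18), with 0.439 (0.226 to 0.810) outside both gates and 2.38 (0.859 to 8.15) in the Rgs5 wells, the last from 19 against 5 UMIs.

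Collagen RNA was concentrated in a minority of wells. At 2 days, the tenth of wells with most Col3a1 (18 of 181) held 64.7% of its UMIs, and the equivalent share was 64.4% at 6 weeks and 74.1% at 13 weeks (13 of 133 wells). For Col1a2 the shares were 47.8%, 34.7% and 56.8%. The wells rich in Col1a2 were mostly Thbs4+Fmod+Tnmd wells, with 12 of 18 at 2 days, 14 of 18 at 6 weeks and 11 of 13 at 13 weeks. Of the wells rich in Col3a1, 5 of 18, 9 of 18 and 2 of 13 were. Of the 17 wells with 20 or more Col3a1 UMIs at 2 days, 16 also had 20 or more Col1a2 UMIs, and 0 had an Rgs5 UMI. Such wells numbered 8 at 6 weeks and 4 at 13 weeks, of which 7 and 2 were also rich in Col1a2, and 0 of the 4 were Thbs4+Fmod+Tnmd wells.

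At a common depth of 300 UMIs, Col1a2 and Col3a1 were seen together in 72 of 175 wells at 2 days (41.1%) and in 18 of 126 at 13 weeks (14.3%). Col1a2 without Col3a1 was seen in 33.7% and 46.0% of wells, and neither in 16.6% and 31.0%. The number of wells with Col3a1 alone was 15 and 11, of which 1 and 2 were Thbs4+Fmod+Tnmd wells. At 6 weeks 0 of 182 wells had Col3a1 alone, where nearly all wells held Col1a2.

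The balance between the type I chains also differed between pools. For each Col1a2 UMI in Thbs4+Fmod+Tnmd wells there were 0.351 Col1a1 UMIs at 2 days (0.321 to 0.382), 0.448 at 6 weeks (0.411 to 0.487) and 0.273 at 13 weeks (0.234 to 0.317). Outside both gates the ratios were 0.442 (0.395 to 0.494), 0.60 (0.540 to 0.665) and 0.276 (0.196 to 0.382). In the Rgs5 wells outside the first gate they were 0.397 (0.239 to 0.640), 0.471 (0.399 to 0.554) and 0.438 (0.216 to 0.843), with 46 type I UMIs at 13 weeks. The 13-week ratio was thus the lowest in the first 2 classes and not in the third. The 6-week ratio was the highest in all 3, in the third by less than the counting error, and it was 0.718 (0.491 to 1.04) in the 6-week muscle wells and 0.613 (0.485 to 0.772) in the endothelial wells. What these ratios owe to strain or plate was not tested.

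Some other collagens of the same classes also differed between the gates. Of all genes tested, 11.4% were higher and 7.14% lower in Thbs4+Fmod+Tnmd wells. In Rgs5 wells 12% were higher and 11.1% lower. Of 17 further fibrillar, fibril-associated and type VI genes, 15 were listed and 4 were tested between Thbs4+Fmod+Tnmd wells and the others, of which 2 were called. Col22a1, a fibril-associated chain known from the junction of muscle and tendon, was higher (log2 fold change 4.06 ± 0.31, edgeR adjusted p = 3.77e-05), as was Col16a1 (2.31 ± 0.37, edgeR adjusted p = 0.00261), and Col5a3 and Col6a3 were not called. Col22a1 and Col16a1 were lower in Rgs5 wells (-2.61 ± 0.51 and -1.89 ± 0.59, edgeR adjusted p = 4.01e-05 and 0.0117), of 3 tested. Col22a1 passed the filter in both comparisons only through the wells where it was high, which fixed its direction. Of the basement membrane collagens, Col4a1 (0.06 ± 0.29), Col4a2 (0.20 ± 0.23) and Col4a4 (0.64 ± 0.46) were tested in the Thbs4+Fmod+Tnmd wells and not called (edgeR adjusted p = 0.903, 0.601 and 0.375). In Rgs5 wells Col4a2 was higher (0.81 ± 0.24, edgeR adjusted p = 0.00681), at 13.5 against 5.79 per 10000 at 2 days, 10.6 against 6.58 at 6 weeks and 7.54 against 6.05 at 13 weeks, and Col4a1 was not called (0.81 ± 0.33, edgeR adjusted p = 0.0692). The Col4a2 call held in 8 of 16 alternatives and was lost with no filter (0.26, edgeR adjusted p = 0.958). The summed endothelial markers were higher in the Rgs5 wells outside the first gate at every time, as given above, and their part in the Col4a2 result was not tested.

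Some genes that fold, process and crosslink collagen also passed the test. In Thbs4+Fmod+Tnmd wells against the others, 11.4% of all 1107 genes tested were higher and 7.14% lower. Of 20 modification and folding genes, 16 were listed and 6 tested, of which Sparc, a collagen-binding matricellular protein (log2 fold change 1.41 ± 0.27, edgeR adjusted p = 0.00582), and Serpinh1, the collagen chaperone HSP47 (1.27 ± 0.30, edgeR adjusted p = 0.0161), were higher in Thbs4+Fmod+Tnmd wells. Crtap, a subunit of the prolyl 3-hydroxylase complex, had 1.51 ± 0.41 (edgeR adjusted p = 0.0310), but it passed the filter only through the wells where it was high, and with no filter it was not called (1.32, edgeR adjusted p = 0.105). Of 4 propeptide processing genes tested, Pcolce, an enhancer of procollagen C-proteinase, was higher (1.15 ± 0.32, edgeR adjusted p = 0.0326) and its relative Pcolce2 was lower (-1.48 ± 0.36, edgeR adjusted p = 0.0206). Of 2 crosslinking enzymes tested, lysyl oxidase (Lox) was higher (2.09 ± 0.33, edgeR adjusted p = 0.00226) and Loxl1 was not called. Pcolce2 passed the filter only through the other wells, where it was high. The receptor genes Itgb1 (0.25 ± 0.24) and Ddr2 (0.30 ± 0.31) were tested and not called (edgeR adjusted p = 0.502 and 0.547).

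In Rgs5 wells, where 11.1% of all genes tested were lower and 12% higher, 2 of 4 folding genes were lower (Sparc, -0.99 ± 0.29, and Serpinh1, -0.80 ± 0.27, edgeR adjusted p = 0.00760 and 0.0216), as were the processing genes Pcolce and Pcolce2 of 3 tested (Pcolce, -0.94 ± 0.26, and Pcolce2, -1.78 ± 0.55, edgeR adjusted p = 0.00368 and 0.0110). The crosslinking enzymes Loxl1 (-4.15 ± 0.86) and Lox (-2.20 ± 0.58) were lower (edgeR adjusted p = 0.000105 and 0.00264). They and Pcolce2 passed the filter only through the wells without Rgs5, which fixed their direction, and all 3 were also called with no filter. Loxl1 had no UMI in Rgs5 wells at 2 days and 13 weeks, so the size of its change depends on the fit. Of the collagen receptors, the integrin chain Itgb1 was higher (0.86 ± 0.29, edgeR adjusted p = 0.0190), a call that held in 10 of 16 alternatives and was lost with no filter (0.31, edgeR adjusted p = 0.958). Itga1, with 41 UMIs, passed the filter only through the Rgs5 wells, where it stood at 2.05, 1.64 and 3.77 per 10000 against 0.477, 0.416 and 0.698, so its direction was fixed by the filter. With no filter it was not called (1.67, edgeR adjusted p = 0.0924), nor was Ddr2 (-0.94, edgeR adjusted p = 0.730), which had 89 UMIs and was not tested under the filter.

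The genes whose levels were most like the summed collagens, over the 9 combinations of time and class and the 588 genes with at least 100 UMIs, were Rcn3 (Pearson r of log2(UMIs per 10000 + 1) 0.98), Mxra8 (0.97), Sparc (0.96), Bgn (0.95) and Timp2 (0.95). Rcn3 encodes a calcium-binding protein of the endoplasmic reticulum, and Bgn encodes biglycan, a collagen-binding proteoglycan. Rcn3, Sparc and Bgn also had a share of 6-week reference wells higher than that of the mixed plate, by 25.0 to 27.5 percentage points, and the 9 points share 3 pools. Among the members, Col1a1 and Col1a2 (r = 0.97), Col11a1 and Col12a1 (0.94), Col6a1 and Col6a2 (0.90) and Col1a2 and Col6a1 (0.90) were the closest pairs, whereas Col12a1 and Col14a1 had the most opposed levels (-0.58). Col3a1 was closer to Col5a1 (0.87) than to Col1a2 (0.50). These values describe 9 points and carry no test.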

How the data were processed

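Single Tomato+ cells were sorted into wells and sequenced by a modified Drop-Seq 3′ protocol. The authors made the deposited UMI and read counts per gene and well from reads processed, per the labels, with bcl2fastq 2.18.0.12, Picard 2.9.3 and STAR 2.5.4a on GRCm38. A UMI marks a 3′ end, so levels were not divided by gene length. The 168 wells without a time point were not used. UMIs were summed per time point and class of wells. Classes were compared with edgeR 4.0.16 (quasi-likelihood, TMM, low counts filtered, time point as a block), with 6 sums per test, Benjamini-Hochberg adjustment over all genes tested, and SEs derived from the F statistic. Ratios have exact conditional, levels Poisson and shares Clopper-Pearson intervals at 95%. Past 2-fold was counted for genes with 50 or more UMIs. Wells were thinned without replacement to 300 UMIs where stated, and no doublet caller was run on sorted wells. Scripts were tested on simulated data (Python 3.11.15, scipy 1.17.1, R 4.3.3, DESeq2 1.42.0 as alternative). Genes named by rule are the 10 members, up to 5 called genes of each list of related genes and the 5 genes most like the summed collagens. Bone genes, tested genes that were not called and Ddr2 were named after their values were seen. The members and lists were chosen with earlier results of these data known.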

Additional observations from a re-analysis of the deposited data

Results flagged for a closer look

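Col3a1 was flagged because its level in Thbs4+Fmod+Tnmd wells, relative to the other wells, went opposite ways at different time points. The ratio was 0.80 at 2 days and 0.358 at 13 weeks, below 1, and 1.31 at 6 weeks, above 1, with counting intervals that excluded 1 at each time. The turn at 6 weeks depends on a few wells: without the 2 gated wells with most Col3a1 the ratio was 0.827 (0.686 to 0.994), and against wells outside both gates it was 0.961 (0.819 to 1.1). Without all wells of 20 or more Col3a1 UMIs the ratios were 0.987, 1.18 and 0.925 at 2 days, 6 weeks and 13 weeks, with intervals that included 1. Without the 5 wells with most Col3a1 of each class and time they were 0.573 (0.484 to 0.677), 1.01 (0.796 to 1.28) and 0.776 (0.470 to 1.25). With 1 pool per time point this difference was not tested.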

How the results depend on the processing

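In the Thbs4+Fmod+Tnmd comparison, 5 members were higher, 3 without the time point as a block, and 3 to 6 when each pool was left out. Col5a1 (0.02) turned to -0.03 with 100 genes per well, -0.01 with DESeq2 size factors, -0.03 with DESeq2, -0.16 with no filter, -0.11 without the deepest 5% of wells, -0.26 with a gate of 5 UMIs, -0.84 without Fmod in the gate and -0.13 without Rgs5 wells in the reference (added after seeing the data), and ranged from -0.19 to 0.19 with a pool left out. Col3a1 (-0.25) turned to 0.56 with a gate of 1 UMI and 0.26 without Tnmd, and ranged from -0.69 to 0.10 with a pool left out, and its 6-week ratio of 1.31 was 0.827 without the 2 gated wells with most Col3a1 (added after seeing the data). In the Rgs5 comparison, 8 members were lower, 3 without the block, 4 without the deepest 5% of wells, 2 after thinning, 2 without Thbs4+Fmod+Tnmd wells (added after seeing the data) and 6 to 7 with a pool left out. The 13-week ratio of 0.429 was 0.470 as a mean over wells, 0.466 without the deepest 5% and 0.401 without the type I chains. The 6-week ratio of 1.07 was 0.990 with 300 genes per well, 0.836 with read counts (Col1a1 0.886, Col1a2 0.856), 1.39 as a mean over wells, 1.25 without the deepest 5% and 0.708 without the type I chains, where leaving out type I was added after seeing the data. The 6-week Col1a2 share of 92.7% was 100% at 500 UMIs or unthinned. Genes called numbered 205 in the first comparison (59 to 342 over the alternatives) and 214 in the second (45 to 290). The median of all genes tested moved to -0.31 and -0.74 with no filter and to -0.20 and -0.48 with read counts. Causes were not tested, except that thinning left fewer genes tested. Both comparisons pair the classes of wells within each pool through the block, and the labels give no replicate numbers that could pair samples further. Col5a1 and Col14a1 had few UMIs, and the part of depth in their results was not tested. With 1 pool per time point differences between mice cannot be estimated.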
